A study of Mus musculus with 17 samples.

Results

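RNA sequencing of 8 mouse liver samples was used to compare 4 samples labelled SMSrKO (numbered 5 to 8) with 4 labelled WT (numbered 1 to 4), out of 17 samples in the whole study. These 8 were chosen because they are the liver samples, and all their genes were compared. Per the labels and the design text, WT is wild type, SMSrKO lacks the protein SMSr, and mice of both genotypes ate a high-fat diet and drank fructose in their water for 16 weeks. The other 9 samples were hepatocytes of mice aged 2 months: 3 WT, 3 lacking Sms1 and Sms2 (dKO) and 3 lacking Sms1, Sms2 and Smsr (tKO). The sources used here do not give how the SMSrKO allele was made, or the age, sex and strain of the liver mice. They also do not say whether each replicate is its own mouse, and p-values therefore reflect only how far these samples differ among themselves, possibly for technical reasons.

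SMSr is the protein product of Samd8. It belongs to the sphingomyelin synthase family but sits in the endoplasmic reticulum, where it makes small amounts of ceramide phosphoethanolamine, and the study's title describes it as a phospholipase C that cleaves phosphatidylethanolamine. Such an enzyme releases diacylglycerol, a lipid messenger and a precursor of triglyceride. Liver exposed to fat and fructose stores triglyceride in lipid droplets, makes fatty acids from sugar under the control of Srebf1 and Mlxipl, and handles nitrogen through the urea cycle in the hepatocytes near the portal vein.

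Samd8 RNA was not lower in the samples labelled SMSrKO. It stood at 38.0, 51.7, 38.3 and 42.3 CPM (read counts relative to the sample's total, scaled by the trimmed mean of M-values) in WT 1 to WT 4, and at 50.3, 52.8, 54.5 and 59.0 in SMSrKO 5 to SMSrKO 8. The groups overlapped, since WT 2 lay above SMSrKO 5, and the log2 fold change was 0.35 ± 0.108 (SE, n = 4 each; edgeR adjusted p = 0.218). The counts cover the whole gene, so a change in part of the gene or in the protein would not show, and the genotypes are given here as labelled.

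The samples held 24391627 to 47351126 gene counts, with WT 1 the deepest. Albumin had 1068303 to 2199752 counts per sample. The extraction text on the labels names subcutaneous white fat, but the defining adipocyte genes Adipoq, Lep and Plin1 had 0 to 3, 0 and 0 to 2 counts. The X-inactivation RNA Xist had 12394 to 29817 counts and each of 4 Y-linked genes at most 6, in all 8 samples. No pair of samples was as close as repeated counting of 1 sample would be.

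WT 1 lay apart. On principal component 1, which held 28.5% of the variance, it stood at −48.67, the other WT samples at −15.33 to −9.1 and the SMSrKO-labelled samples at 6.83 to 29.43. On component 2 (22.7%), it stood at −38.19 while the other WT samples stood at 19.47 to 31.39. SMSrKO 8 lay apart from the others of its label on component 3, at 37.13. Genes whose call changed when WT 1 was left out are therefore given with and without it.

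**Figure D1:**
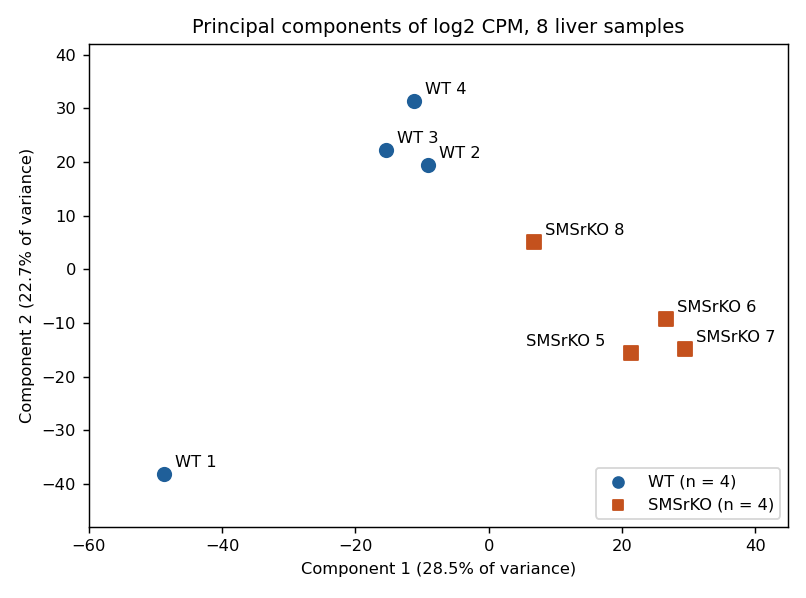
Principal components 1 and 2 of log2 CPM of the tested genes in the 8 liver samples (x and y axes, in component units, with the share of variance). Blue circles are WT and orange squares SMSrKO; WT 1 lies at the lower left, at −48.67 and −38.19, away from the other 3 WT samples.

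Across all genes, edgeR's quasi-likelihood test called 37 of 15820 at an adjusted p under 0.05, which is 0.234% of the genes tested. Of these, 19 were higher and 18 lower in the samples labelled SMSrKO, and 21 differed at least 2-fold. An unadjusted p under 0.05 was reached by 2075 genes, 944 higher and 1131 lower, and 8255 of the 15820 were below zero. In all 37 called genes the 2 groups did not overlap, as was the case for 1284 of the tested genes. The called genes ranged from 6 that averaged under 1 CPM to 20 at 5 CPM or more, and 29 carried gene names rather than predicted or clone names. With WT 1 left out, 109 of 15988 genes were called, 42 higher and 67 lower, or 0.682%. In that fit 2328 genes reached an unadjusted p under 0.05, 1047 higher and 1281 lower, and 8279 were below zero. The counts given below for gene lists are to be read beside these counts over all genes. Both fits shared 35 calls. When each of the 8 samples was left out in turn, 10 of the 37 calls were kept every time and 27 were lost at least once.

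**Figure D2:**
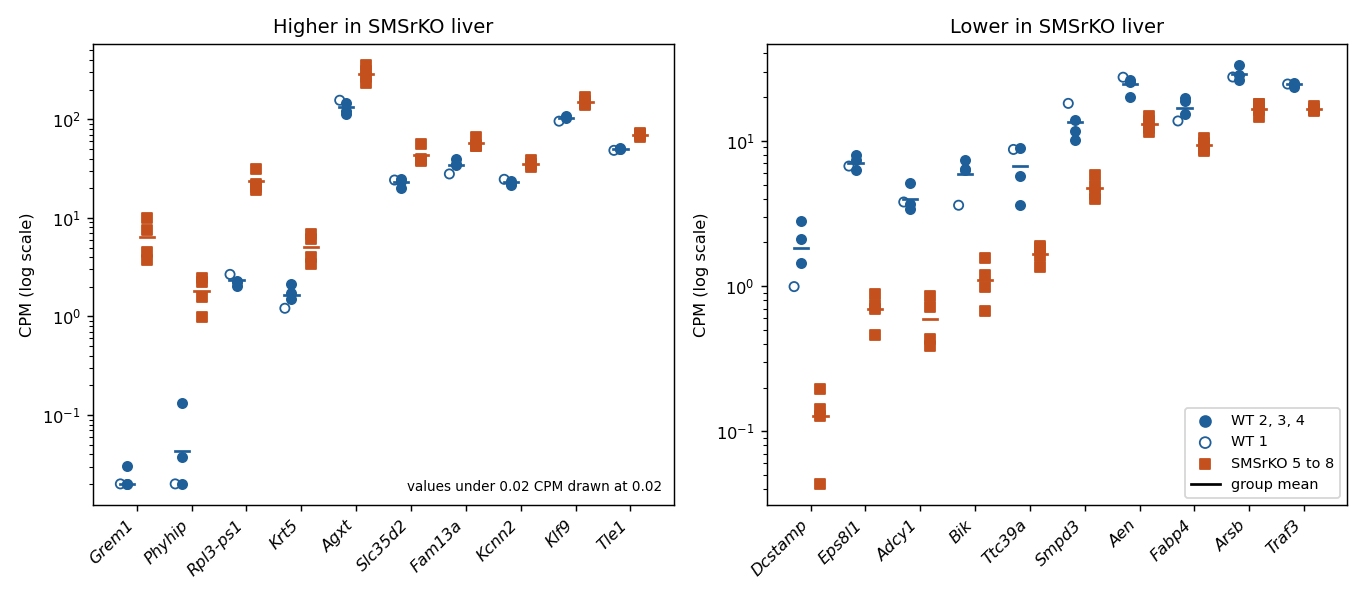
CPM on a log axis for 10 genes called higher (left) and 10 called lower (right) in SMSrKO-labelled liver, 1 point per sample, with bars at the group means. WT 1 is the open circle; Grem1, Phyhip, Rpl3-ps1, Dcstamp, Eps8l1 and Adcy1 show the widest gaps between the groups among the genes drawn, while Klf9, Tle1 and Traf3 show narrow ones with tight replicates.

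The widest difference was in Grem1 (chromosome 2, 113746164 to 113758646, GRCm38), which encodes gremlin 1, a secreted protein that binds bone morphogenetic proteins (BMPs) and keeps them from their receptors. Its RNA was at 0 in WT 1, WT 2 and WT 3 and at 0.0302 CPM, a single read count, in WT 4. It stood at 9.90, 4.52, 3.76 and 7.47 CPM in SMSrKO 5 to SMSrKO 8. All 4 samples labelled SMSrKO therefore held it and WT samples all but lacked it: 762 counts against 1, a ratio per total count of 828 with an exact 95% interval of 148 to 32700 that covers counting error only. In edgeR the call had an adjusted p of 0.000264, and it was kept when any single sample was left out.

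Of 28 tested genes of BMP and transforming growth factor signalling, 1 passed in either fit, Grem1 itself. With all 8 samples 7 were higher and 1 lower at an unadjusted p under 0.05, and 6 and 1 without WT 1. The list's median log2 fold change was 0.06 against −0.01 for all genes. The ligands Bmp2 and Bmp6 differed by 0.07 ± 0.139 and 0.13 ± 0.183, and the receptors Bmpr1a and Bmpr2 by −0.05 ± 0.079 and 0.00 ± 0.0886. The iron hormone hepcidin, a BMP target made by hepatocytes, was the most variable. Hamp stood at 32.1, 56.5, 5.46 and 80.4 CPM in WT 1 to WT 4 and at 299, 454, 482 and 300 in SMSrKO 5 to SMSrKO 8. The groups did not overlap, yet the test did not pass, with a log2 fold change of 3.14 ± 0.698 (edgeR adjusted p = 0.144), and WT samples differed among themselves more than 10-fold. Without WT 3, its lowest sample, Hamp passed. Its paralog Hamp2 stood at 41.0, 24.5, 21.1 and 50.5 CPM in WT and 130, 302, 126 and 134 in SMSrKO-labelled samples (2.33 ± 0.398, edgeR adjusted p = 0.0714). Reads shared by these near-identical genes make both values uncertain. The BMP-induced regulators Id1 and Atoh8 differed by 1.19 ± 0.411 and 0.77 ± 0.214, and neither passed (edgeR adjusted p = 0.278 and 0.186).

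The upstream sequences of 4 called genes are shown. Grem1 carries the widest difference, and the other 3 match a pattern searched for a regulator family on the clock and immediate early lists. Sequences and starts are those of RefSeq on GRCm38.p6, each the 250 bases before an annotated start, 5′ to 3′ on the gene's strand, with motif letters in capitals. Of the called genes with names, 17 matched a promoter window. The E-box CACGTG, read by clock factors, starts at −169 of Adcy1 and at −79 of the second of the Aen starts. The pattern TGANTCA, which lets any base stand at the centre of the AP-1 site of Jun and Fos proteins, matches TGAATCA at −89 of Klf9. Such a match is looser than the AP-1 site itself. The windows lie at chr2:113758649-113758898 (Grem1, minus strand), chr11:7063183-7063432 (Adcy1, plus), chr7:78895808-78896057 (Aen, plus) and chr19:23140976-23141225 (Klf9, plus).
Grem1: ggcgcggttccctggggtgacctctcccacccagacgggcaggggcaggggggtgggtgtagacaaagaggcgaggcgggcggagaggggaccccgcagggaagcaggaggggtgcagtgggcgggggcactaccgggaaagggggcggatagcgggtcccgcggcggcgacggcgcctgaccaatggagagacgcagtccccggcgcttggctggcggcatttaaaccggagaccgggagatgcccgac
Adcy1: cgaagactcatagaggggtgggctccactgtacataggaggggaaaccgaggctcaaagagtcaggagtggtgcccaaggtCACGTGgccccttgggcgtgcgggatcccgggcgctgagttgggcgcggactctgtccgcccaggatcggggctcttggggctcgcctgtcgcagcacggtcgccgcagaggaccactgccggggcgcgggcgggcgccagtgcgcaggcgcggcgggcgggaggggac
Aen: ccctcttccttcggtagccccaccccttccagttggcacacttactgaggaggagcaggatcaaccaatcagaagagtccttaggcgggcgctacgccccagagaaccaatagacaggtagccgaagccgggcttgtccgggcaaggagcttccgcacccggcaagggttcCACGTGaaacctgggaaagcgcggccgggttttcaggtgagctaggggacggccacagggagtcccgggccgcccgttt
Klf9: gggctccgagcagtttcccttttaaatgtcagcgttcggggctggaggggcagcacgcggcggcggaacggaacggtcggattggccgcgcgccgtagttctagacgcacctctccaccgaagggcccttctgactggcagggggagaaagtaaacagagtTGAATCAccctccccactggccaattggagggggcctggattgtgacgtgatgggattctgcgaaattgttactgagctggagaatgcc

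Searched on both strands in windows of 250 bases before to 50 after the start, the E-box occurred in 2 of the 17 called genes and in 8.09% of all 27025 genes with RefSeq windows (7.15% of 32851 windows). The looser AP-1 pattern TGANTCA occurred in 1 called gene, Klf9, and in 8.97% of genes (7.81% of windows). The cyclic AMP response element TGACGTCA occurred in 1, Habp4, and in 2.03% of genes (1.79% of windows). The D-box TTATGTAA, read by Dbp and its relatives, was in 0 of the 17 and in 1.11% of genes (0.938% of windows). A match describes the letters and does not show that a factor binds there.

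Among metabolic enzymes, Agxt rose. It encodes alanine-glyoxylate aminotransferase, which removes glyoxylate before it turns to oxalate. Its level was 156, 120, 147 and 112 CPM in WT 1 to WT 4 and 268, 309, 356 and 231 in SMSrKO 5 to SMSrKO 8. Every SMSrKO-labelled sample lay above every WT sample, by 1.12 ± 0.157 on the log2 scale (edgeR adjusted p = 0.0216), and by 1.20 ± 0.154 without WT 1 (0.0121). The call was kept without WT 1 or SMSrKO 8 and lost without any other single sample, with adjusted p up to 0.0891 in edgeR. The other enzymes that handle glyoxylate did not pass: Hao1 differed by −0.12 ± 0.115, Grhpr by 0.02 ± 0.0969 and Hoga1 by 0.27 ± 0.132.

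The transcription regulators Klf9 and Tle1 rose by small amounts. Klf9, a zinc finger factor induced by glucocorticoid and thyroid hormone, stood at 95.7, 109, 104 and 105 CPM in WT and at 153, 143, 168 and 141 in SMSrKO-labelled samples (0.55 ± 0.0873, edgeR adjusted p = 0.0434). Tle1, a corepressor of the Groucho family, stood at 48.4, 50.5, 50.5 and 50.7 CPM in WT and at 68.7, 72.0, 66.3 and 71.7 (0.48 ± 0.0652, edgeR adjusted p = 0.0188). In both genes the groups were apart and each group was narrow. Klf9 kept its call in 1 of the 8 fits that left out 1 sample, and Tle1 in 2.

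Slc35d2, Kcnn2, Fam13a and Trim80 also rose. Slc35d2, a Golgi nucleotide sugar transporter, stood at 24.2, 23.8, 24.6 and 20 CPM in WT and at 37.9, 56.5, 39.8 and 38.7 in SMSrKO-labelled samples, with SMSrKO 6 the highest (0.90 ± 0.137, edgeR adjusted p = 0.0351). Kcnn2, a small-conductance calcium-activated potassium channel, stood at 24.6, 21.5, 23.8 and 22.8 CPM in WT and at 38.3, 33.0, 35.3 and 35.5 (0.61 ± 0.0793, edgeR adjusted p = 0.0149). Fam13a stood at 27.9 to 39.8 CPM in WT and 53.9 to 66.7 in SMSrKO-labelled samples (0.74 ± 0.118). Trim80 rose by 1.1 ± 0.179, and it was called with all 8 samples (edgeR adjusted p = 0.0473) but not without WT 1 (0.0506). Of the 8 fits that left out 1 sample, Slc35d2 kept its call in 3, Kcnn2 in 4, Fam13a in 2 and Trim80 in 1.

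Several genes best known from other tissues rose from low levels. Phyhip, whose protein binds phytanoyl-CoA hydroxylase and which is mainly a brain gene, stood at 0, 0.133, 0.0376 and 0 CPM in WT and at 2.48, 2.21, 0.981 and 1.56 in SMSrKO-labelled samples. That is 210 counts against 5, with a fitted log2 fold change of 5.44 ± 0.681 (edgeR adjusted p = 0.0144) that moved between 4.90 and 7.07 as single samples were left out. Krt5, a keratin of basal epithelium, stood at 1.21, 1.52, 2.11 and 1.72 CPM in WT and at 6.13, 6.80, 4.05 and 3.43 (1.64 ± 0.268, edgeR adjusted p = 0.0473). Pde6c, the phosphodiesterase subunit of cone photoreceptors, stood at 0.331 to 0.414 CPM in WT and 0.996 to 1.82 in SMSrKO-labelled samples (1.92 ± 0.280). Krt5 kept its call in 2 of the 8 fits that left out 1 sample, Pde6c in 3 and Phyhip in 5. The bile duct keratins Krt7 and Krt19 did not pass, at 0.20 ± 0.262 and 0.43 ± 0.306.

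Pseudogenes and predicted transcripts made up the rest of the genes that rose. Rpl3-ps1, a copy of a ribosomal protein gene on chromosome X, stood at 2.67, 2.05, 2.26 and 2.29 CPM in WT and at 22.3, 19.1, 31.6 and 20.8 in SMSrKO-labelled samples (3.33 ± 0.179, edgeR adjusted p = 6.32e-05). Gm8615 on chromosome 5 stood at 0.0603 to 0.113 CPM in WT and 5.08 to 14.4 in SMSrKO-labelled samples (6.82 ± 0.523). The opposite was seen for Gm10020 on chromosome 15, at 4.77 to 5.57 CPM in WT and 0.0654 to 0.320 (−4.76 ± 0.350), and for Rpl15-ps2 on chromosome 9, at 1.57 to 2.24 and 0.214 to 0.307 (−2.83 ± 0.250). All 4 kept their calls whichever single sample was left out. Near-identical copies share reads, so the levels of such transcripts are uncertain.

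Among the genes that fell, 1 belongs to sphingolipid metabolism. Smpd3 encodes neutral sphingomyelinase 2, which cuts sphingomyelin to ceramide at the plasma membrane and Golgi. It stood at 18.1, 13.9, 10.2 and 11.6 CPM in WT 1 to WT 4 and at 4.87, 5.80, 3.96 and 4.30 in SMSrKO 5 to SMSrKO 8. Every SMSrKO-labelled sample lay below every WT sample (−1.51 ± 0.197, edgeR adjusted p = 0.0149), and the call was lost without SMSrKO 5 or SMSrKO 7.

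The rest of sphingolipid metabolism did not pass. Of 23 genes of sphingolipid breakdown tested, Smpd3 alone was called in either fit, with medians of −0.05 and, without WT 1, −0.12. With all 8 samples 17 were below zero, with 3 lower and 0 higher at an unadjusted p under 0.05. Without WT 1, 16 were below zero, with 5 lower and 0 higher. The other sphingomyelinases Smpd1, Smpd2 and Smpd4 differed by −0.20 ± 0.087, −0.20 ± 0.0936 and −0.05 ± 0.121, and the acid ceramidase Asah1 by −0.25 ± 0.119. Of 17 genes of sphingolipid synthesis 0 were called in either fit, with 2 higher and 1 lower at an unadjusted p under 0.05 with all 8 samples, 2 and 3 without WT 1, and medians of 0.08 and 0.05. Sptlc2, a subunit of the serine palmitoyltransferase that starts the pathway, stood at 34.3 to 42.9 CPM in WT and 24.9 to 32.5 in SMSrKO-labelled samples (−0.43 ± 0.106, edgeR adjusted p = 0.149), with no overlap. The sphingomyelin synthases Sgms1 and Sgms2 differed by 0.20 ± 0.161 and 0.37 ± 0.146.

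The enzymes on either side of the reaction ascribed to SMSr were not called either. Of 20 genes of phosphatidylethanolamine and phosphatidylcholine synthesis 0 passed in either fit. An unadjusted p under 0.05 was reached by 0 of them with all 8 samples and by 4 higher and 1 lower without WT 1, with medians of 0.08 and 0.01. Of 24 genes that act on or respond to diacylglycerol 0 passed, with 18 below zero and 3 lower at an unadjusted p under 0.05 in both fits and medians of −0.16 and −0.17. Phospholipase C epsilon, Plce1, stood at 31.1, 32.7, 26.6 and 29.2 CPM in WT and at 22, 20.1, 15.1 and 19.9 (−0.64 ± 0.120, edgeR adjusted p = 0.0713). The groups did not overlap. Ctps, the CTP synthase whose product carries the head groups into phospholipid synthesis, fell from 5.50 to 7.69 CPM in WT to 2.07 to 3.56 in SMSrKO-labelled samples (−1.17 ± 0.193, edgeR adjusted p = 0.0499), and kept its call in 1 of the 8 fits that left out 1 sample.

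Eps8l1, Adcy1, Dcstamp and Tbc1d31 fell in every fit that left out 1 sample. Eps8l1, an actin-regulating relative of Eps8, stood at 6.70, 7.32, 7.94 and 6.33 CPM in WT and at 0.739, 0.463, 0.883 and 0.690 in SMSrKO-labelled samples (−3.34 ± 0.206, edgeR adjusted p = 0.00012). Adcy1, a calcium-stimulated adenylyl cyclase, stood at 3.79, 3.68, 3.39 and 5.13 CPM in WT and at 0.434, 0.712, 0.850 and 0.384 (−2.74 ± 0.281, edgeR adjusted p = 0.00386). Dcstamp, a membrane protein needed for the fusion of macrophages into osteoclasts, stood at 0.991, 2.12, 1.43 and 2.81 CPM in WT and at 0.0434, 0.142, 0.196 and 0.128 (−3.76 ± 0.456, edgeR adjusted p = 0.0132). In these 3 genes the groups were separated by wide gaps. Tbc1d31, a centriolar satellite protein, had a smaller fold: 14.5 to 16.0 CPM in WT and 7.81 to 8.99 in SMSrKO-labelled samples (−0.89 ± 0.0937, edgeR adjusted p = 0.00432).

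Bik, Aen and Traf3 fell as well. Bik, a BH3-only protein that promotes apoptosis, stood at 3.60, 7.42, 6.4 and 6.30 CPM in WT and at 1.56, 0.676, 0.981 and 1.20 in SMSrKO-labelled samples (−2.42 ± 0.296, edgeR adjusted p = 0.0132). Aen, a nuclease induced by p53, stood at 27.4, 26.4, 19.9 and 25.3 CPM in WT and at 11.5, 14.8, 13.6 and 12.3 (−0.92 ± 0.123, edgeR adjusted p = 0.0161). Neither gene's groups overlapped. Traf3, an adaptor of tumour necrosis factor and interferon signalling, fell from 23.5 to 24.9 CPM in WT to 16.0 to 17.4 (−0.56 ± 0.0737, edgeR adjusted p = 0.0149). Of the 8 fits that left out 1 sample, Bik kept its call in 6, Aen in 4 and Traf3 in 3.

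The remaining named genes that fell had modest folds, except for Ttc39a. Fabp4, a fatty acid binding protein of adipocytes and macrophages, stood at 13.7, 15.4, 18.8 and 19.8 CPM in WT and at 8.47, 10.4, 8.83 and 9.59 in SMSrKO-labelled samples (−0.86 ± 0.136, edgeR adjusted p = 0.0434). The lysosomal sulfatase Arsb fell by 0.80 ± 0.104, the exocyst subunit Exoc4 by 0.76 ± 0.0961, Arhgap10 by 0.90 ± 0.147 and the RNA-binding protein Habp4 by 0.61 ± 0.0957. The repeat proteins Ttc39a and Ttc38 fell by 2.02 ± 0.287 and 0.87 ± 0.125. All of these groups were apart, and each of these 7 genes lost its call without at least 1 sample.

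Leaving out WT 1 brought 74 further genes past the threshold and removed 2, Trim80 and Gm15975. In enzymes of nitrogen disposal, WT 1 lay with or above the SMSrKO-labelled samples. Cps1, the first enzyme of the urea cycle, stood at 2010, 2260 and 1900 CPM in WT 2 to WT 4, at 3830, 3810, 3810 and 3430 in SMSrKO-labelled samples, and at 5750 in WT 1. Ass1, which makes argininosuccinate in the same cycle, stood at 999, 1210 and 892 CPM in WT 2 to WT 4, at 1810, 2300, 1900 and 1990, and at 2840 in WT 1. Gls2, the liver glutaminase, stood at 168, 208 and 126 CPM, at 393, 423, 313 and 346, and at 367 in WT 1.

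These 3 genes passed the test without WT 1 and not with all 8 samples. Their log2 fold changes were 0.85 ± 0.111, 0.95 ± 0.138 and 1.13 ± 0.174 without WT 1 (edgeR adjusted p = 0.0128, 0.019 and 0.025). With all 8 samples they were 0.32 ± 0.338, 0.43 ± 0.342 and 0.76 ± 0.294 (edgeR adjusted p = 0.722, 0.628 and 0.321). Of the 24 glyoxylate and amino acid genes, Agxt alone was called with all 8 samples, against 0.234% of all genes. Without WT 1, Agxt, Gls2, Cps1 and Ass1 were called, against 0.682% of all genes. The list's median went from 0.22 to 0.51. In the 16 genes of periportal hepatocytes, 0 were called with all 8 samples, with 2 higher at an unadjusted p under 0.05. Without WT 1 the 3 genes Gls2, Cps1 and Ass1 were called, against the same 0.682% of all genes. The medians were 0.17 and 0.35. Other urea cycle enzymes did not pass without WT 1, among them Arg1 at 0.53 ± 0.117 (edgeR adjusted p = 0.0803) and Otc at 0.06 ± 0.147.

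Of 22 genes of fatty acid uptake and lipid droplets, 1 fell with all 8 samples, Fabp4, and 4 without WT 1: Cidec, Fabp4, Fabp5 and Fitm2. Over all genes tested, 0.234% and 0.682% were called in these fits. Cidec, which fuses lipid droplets into larger ones, stood at 42.2, 70.1 and 88.4 CPM in WT 2 to WT 4 and at 10.6, 14.8, 16.7 and 15.5 in SMSrKO-labelled samples, while WT 1 held 3.34. The fold was −2.21 ± 0.257 without WT 1 (edgeR adjusted p = 0.0186) and −1.82 ± 0.771 with it (0.375). The list's medians were −0.10 and −0.19. Fitm2, which helps droplets form, stood at 118, 117 and 111 CPM in WT 2 to WT 4, at 89.7, 88.0, 89.6 and 80.9 in SMSrKO-labelled samples and at 52.3 in WT 1 (−0.41 ± 0.0718, edgeR adjusted p = 0.0377 without WT 1, and −0.20 ± 0.227, 0.746 with it). The droplet coat genes Plin2 and Plin5 did not pass in either fit, without WT 1 at −0.37 ± 0.146 and −0.02 ± 0.109, nor did the fatty acid transporter Cd36, at −0.14 ± 0.109.

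For fatty acid synthesis WT 1 lay on the other side. Fasn, fatty acid synthase, stood at 2950 CPM in WT 1, at 210, 237 and 208 in WT 2 to WT 4 and at 138, 142, 120 and 134 in SMSrKO-labelled samples. The log2 fold change was −2.76 ± 0.970 with WT 1 (edgeR adjusted p = 0.293) and −0.72 ± 0.0914 without it (0.0119). Acly, Acaca and Elovl6 were likewise high in WT 1, at 579, 227 and 331 CPM against 105 to 118, 87.9 to 108 and 44.4 to 62.8 in the other WT samples. Without WT 1 they differed by −0.30 ± 0.091, −0.36 ± 0.108 and −0.33 ± 0.158, and none of these 3 passed. Scd1, the stearoyl-CoA desaturase, followed no group: it stood at 16600 CPM in WT 3 and 12800 in SMSrKO 6, against 3570 and 5460 in WT 2 and WT 4 and 4230 to 5840 in the other SMSrKO-labelled samples. Of 20 lipogenesis genes 0 passed with all 8 samples (9 lower at an unadjusted p under 0.05) and Fasn alone without WT 1, with medians of −0.67 and −0.32.

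Of 29 targets of p53, 1 fell with all 8 samples, Aen, and 5 fell without WT 1, Aen, Cdkn1a, Ccng1, Zmat3 and Eda2r, against 0.234% and 0.682% of all genes called. At an unadjusted p under 0.05, 12 were lower and 2 higher with all 8 samples, and 14 and 2 without WT 1. Over all genes tested, 1131 of 15820 were lower and 944 higher with all 8 samples. Without WT 1, 1281 of 15988 were lower and 1047 higher. Cdkn1a, the cyclin-dependent kinase inhibitor p21, stood at 11, 20.2, 13.2 and 22 CPM in WT 1 to WT 4 and at 2.52, 6.87, 3.66 and 5.04 in SMSrKO-labelled samples. The groups were apart in both fits, with an edgeR adjusted p of 0.068 with all 8 samples (−1.87 ± 0.327) and 0.0379 without WT 1 (−2.03 ± 0.314). Eda2r, a death receptor of the tumour necrosis factor family, stood at 1.66, 6.36, 2.33 and 4.25 CPM in WT and at 0.608, 0.712, 0.785 and 0.614 (−2.67 ± 0.329 without WT 1, edgeR adjusted p = 0.0117, and −2.41 ± 0.414, 0.0574 with all 8).

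Zmat3, an RNA-binding p53 target, stood at 12.1 to 15.4 CPM in WT and 6.39 to 9.11 in SMSrKO-labelled samples. Ccng1, cyclin G1, stood at 41.7 to 60.3 and 31.2 to 35.4 CPM. Their edgeR adjusted p was 0.0574 and 0.0964 with all 8 samples and 0.0432 and 0.0358 without WT 1. The list's medians were −0.30 and −0.36, and 24 of 29 members were below zero with all 8 samples. Members that did not pass included Mdm2, which degrades p53, at −0.17 ± 0.0724 without WT 1, and the apoptosis genes Bax and Bbc3, at −0.64 ± 0.152 and −0.34 ± 0.206. Cell cycle genes, on a separate list, numbered 0 of 27 called in either fit, with 7 lower at an unadjusted p under 0.05 and medians of −0.27 and −0.25.

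Immediate early genes respond within minutes to stimuli. With all 8 samples 0 of 27 were called and 22 were below zero, with 7 lower and 1 higher at an unadjusted p under 0.05. Without WT 1, 2 of 28 fell, against 0.682% of all genes called, and 24 were below zero, with 12 lower and 0 higher. The medians were −0.44 and −0.47. Of 19 clock genes 0 were called with all 8 samples and 2 rose without WT 1, against 0.682% of all genes. At an unadjusted p under 0.05, 4 were higher and 3 lower, and 6 and 3 without WT 1 (median 0.17 in both). Jun stood at 79.0, 133, 215 and 229 CPM in WT 1 to WT 4 and at 85.2, 73.8, 72.6 and 89.4 in SMSrKO-labelled samples (−1.26 ± 0.178 without WT 1, edgeR adjusted p = 0.0215, and −1.03 ± 0.301, 0.212 with all 8), so that WT 1 lay among the SMSrKO-labelled samples. Fosb fell by 2.48 ± 0.383 without WT 1 and did not pass with all 8 samples, at −2.10 ± 0.696 (edgeR adjusted p = 0.26), while Fos and Egr1 did not pass, at −1.15 ± 0.311 and 0.15 ± 0.239. The clock output factor Dbp stood at 75.6, 105, 109 and 121 CPM in WT and at 180, 163, 156 and 150 (0.54 ± 0.0914 without WT 1, edgeR adjusted p = 0.0349, and 0.66 ± 0.138, 0.0964 with all 8). The repressor Bhlhe41 rose by 1.25 ± 0.219 without WT 1 and did not pass with all 8 samples, at 0.86 ± 0.301 (edgeR adjusted p = 0.27). The core clock genes Arntl, Clock and Per2 did not pass in either fit and without WT 1 differed by −0.23 ± 0.313, −0.10 ± 0.135 and 0.18 ± 0.111.

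**Figure D3:**
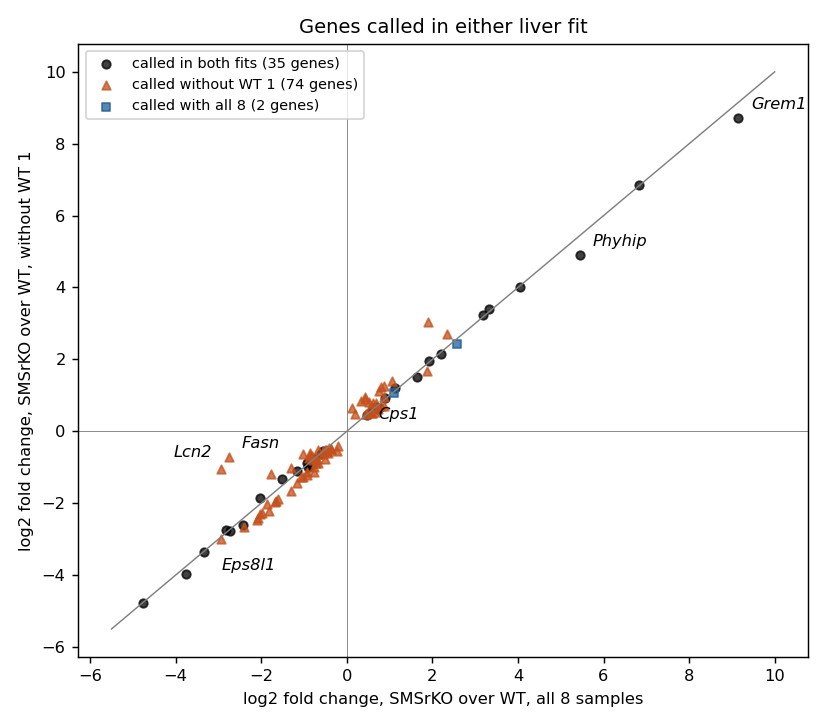
Log2 fold change (SMSrKO over WT) of the genes called in either fit, with all 8 samples (x axis) and without WT 1 (y axis); the line marks equal values. The 35 genes called in both fits lie close to the line, and Fasn and Lcn2 lie above it, with smaller negative folds once WT 1 is left out.

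**Figure D4:**
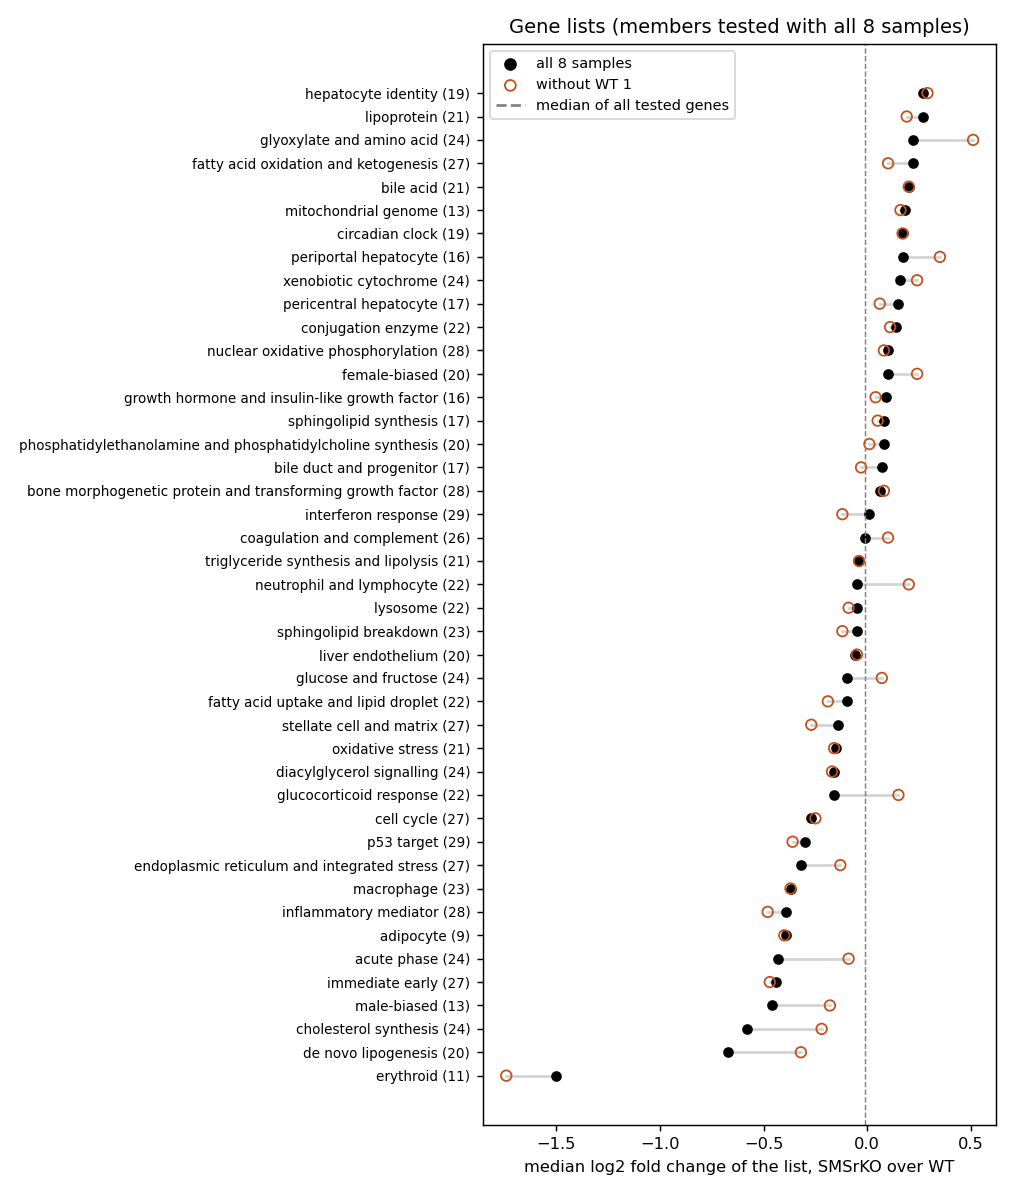
Median log2 fold change (x axis, SMSrKO over WT) of each gene list with at least 5 tested members, with all 8 samples (filled) and without WT 1 (open); the number of members tested stands in brackets and the dashed line is the median of all tested genes. Lipogenesis, cholesterol synthesis and acute phase genes move toward the line without WT 1, and glyoxylate and amino acid genes move away from it.

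Globins and the acute phase gene Lcn2 were lower without WT 1. The beta globin Hbb-bs stood at 15.8, 55.4, 68.9 and 33.8 CPM in WT 1 to WT 4 and at 13.4, 8.68, 14.5 and 17.2 in SMSrKO-labelled samples (−1.96 ± 0.299 without WT 1, edgeR adjusted p = 0.0451, and −1.68 ± 0.439, 0.179 with all 8). Of 11 erythroid genes tested 3 fell without WT 1, Hbb-bs, Hbb-bt and Hba-a2, against 0.682% of all genes called. With all 8 samples 0 of the 11 were called, against 0.234%. At an unadjusted p under 0.05, 9 were lower and 0 higher without WT 1 (median −1.74), and 7 lower and 1 higher with all 8 samples. The list's summed level was 208 CPM in WT 1, 312 to 373 in WT 2 to WT 4 and 239 to 270 in SMSrKO-labelled samples. Summed levels of lists are relative to the sample's total alone, without scaling by the trimmed mean of M-values. The list's median log2 fold change was −1.50 with all 8 samples but −0.90 without WT 3. The part of blood cell RNA in the other differences was not tested. Lcn2, an acute phase lipocalin, stood at 897 CPM in WT 1, 72.1, 79.4 and 76.1 in WT 2 to WT 4, and 40.7, 37.0, 26.6 and 41.1 in SMSrKO-labelled samples (−1.06 ± 0.142 without WT 1, edgeR adjusted p = 0.0161, and −2.95 ± 0.940, 0.259 with all 8). Neutrophil and lymphocyte genes numbered 0 of 22 called in either fit, with 1 lower at an unadjusted p under 0.05 in each and medians of −0.05 and 0.20.

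The acute phase list showed where WT 1 stood. Its summed level was 54200 CPM in WT 1, 22000 to 27000 in the other WT samples and 21400 to 25000 in SMSrKO-labelled samples. Serum amyloid A genes were far above: Saa1 stood at 2570 CPM in WT 1, at 96.2 to 109 in the other WT samples and at 38.8 to 84.5 in SMSrKO-labelled samples. Of 24 acute phase genes 0 passed with all 8 samples (6 lower and 1 higher at an unadjusted p under 0.05), and 1, Lcn2, without WT 1, where 10 were above and 14 below zero. The median was −0.43 and −0.09. Genes that were low in WT 1 alone among all 8 samples included Acot1, a peroxisome proliferator target, at 28.3 CPM against 261 to 445, and Krt23, at 0.474 against 11.5 to 28.7. Summed fatty acid oxidation genes stood at 12500 CPM in WT 1 and at 22200 to 28700 in the other 7 samples.

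**Figure D5:**
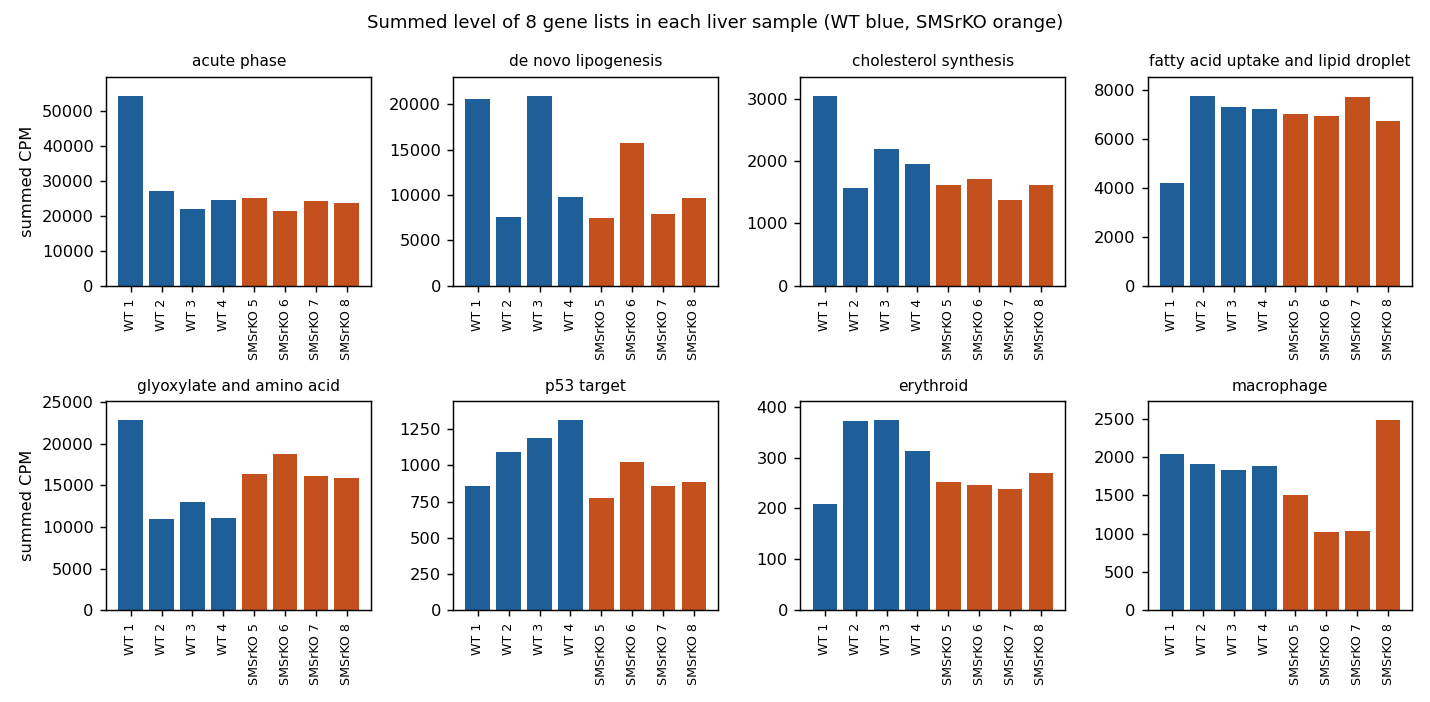
Summed CPM of 8 gene lists, relative to the sample's total alone (y axes, starting at 0), in each liver sample (x axis), WT in blue and SMSrKO in orange. Acute phase, cholesterol synthesis and glyoxylate and amino acid genes are highest in WT 1, lipogenesis is high in WT 1, WT 3 and SMSrKO 6, and macrophage genes range from 1020 to 2480 CPM within SMSrKO.

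Markers of other liver cells did not pass in either fit. All 23 macrophage genes were below zero with all 8 samples and 22 of 23 without WT 1, with a median of −0.37 in both and 1 and 3 lower at an unadjusted p under 0.05. Their summed level was 2040, 1910, 1830 and 1880 CPM in WT and 1510, 1020, 1030 and 2480 in SMSrKO-labelled samples, so that SMSrKO 8 lay above every WT sample. The Kupffer cell gene Clec4f followed the same order within the SMSrKO-labelled samples, at 245, 144, 153 and 342 CPM. In whole liver, fewer cells of a type and less RNA per cell cannot be told apart. Of 28 inflammatory mediators Traf3 alone was called in both fits (medians −0.39 and −0.48). With all 8 samples 24 of them were below zero, with 7 lower and 0 higher at an unadjusted p under 0.05. Without WT 1, 27 were below zero, with 15 lower and 0 higher. Endothelial, stellate and bile duct lists had 0 calls in either fit. At an unadjusted p under 0.05, the endothelial list had 0 with all 8 samples and 1 higher and 1 lower without WT 1 (medians −0.06 and −0.05). The stellate list had 1 lower and 6 lower, with 20 and 24 of 27 below zero (medians −0.14 and −0.27). The bile duct list had 1 higher and 2 lower, and 1 and 3 (medians 0.07 and −0.03).

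Of 19 hepatocyte identity genes 0 were called in either fit, 5 were higher at an unadjusted p under 0.05 in both, and the medians were 0.27 and 0.29. Their summed level was 61300 to 70500 CPM in WT and 77100 to 87700 in SMSrKO-labelled samples. Cytochromes of xenobiotic metabolism had 7 of 24 higher at an unadjusted p under 0.05 with all 8 samples, and Cyp2c37 alone passed, without WT 1 (0.51 ± 0.09, edgeR adjusted p = 0.0399, and 0.59 ± 0.117, 0.0874 with all 8). Lipoprotein genes numbered 0 of 21 called with all 8 samples and 1 without WT 1. That gene was Apom, the carrier of sphingosine 1-phosphate, at 86.1, 77.9 and 68.8 CPM in WT 2 to WT 4, 136, 124, 148 and 136 in SMSrKO-labelled samples and 147 in WT 1 (0.81 ± 0.101 without WT 1, edgeR adjusted p = 0.0117, and 0.52 ± 0.215, 0.353 with it).

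Gluconeogenic and other glucose genes had 0 calls of 24 in either fit, with 2 higher and 5 lower at an unadjusted p under 0.05 with all 8 samples. Glucose-6-phosphatase, G6pc, came closest, at 692, 423, 474 and 464 CPM in WT and 168, 236, 242 and 94.7 in SMSrKO-labelled samples, with no overlap (−1.47 ± 0.291, edgeR adjusted p = 0.093). Cholesterol synthesis numbered 0 of 24 in either fit, with 9 lower at an unadjusted p under 0.05 with all 8 samples and medians of −0.58 and −0.22. Hmgcs1 stood at 70.4 to 101 CPM in WT and 43.6 to 70.1 in SMSrKO-labelled samples (−0.55 ± 0.159, edgeR adjusted p = 0.198). Among fatty acid oxidation genes, 25 of 27 were above zero with all 8 samples and 17 without WT 1, and 0 passed (6 higher and 1 lower at an unadjusted p under 0.05). The microsomal omega-hydroxylases Cyp4a14 and Cyp4a10 differed by 0.97 ± 0.226 and 0.97 ± 0.278 (edgeR adjusted p = 0.125 and 0.192).

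The samples labelled SMSrKO also varied among themselves. Cacna1a, a calcium channel subunit, stood at 19.0, 1.96, 9.61 and 12.5 CPM in SMSrKO 5 to SMSrKO 8 and at 1.28 to 1.96 in WT. SMSrKO 5, SMSrKO 7 and SMSrKO 8 were thus above every WT sample while SMSrKO 6 was level with WT 4, and the gene did not pass (2.73 ± 0.584, edgeR adjusted p = 0.122). Gadd45g, a growth arrest gene, stood at 8.65, 68.4, 38.8 and 7.13 CPM, and Cyp7a1, the rate-limiting enzyme of bile acid synthesis, at 343, 430, 66.1 and 112. The sulfotransferases Sult3a1 and Sult1e1 stood at 48.9, 4.63, 22.5 and 6.09 CPM and at 5.86, 18.9, 6.60 and 1.51. No order of the 4 samples was common to these genes.

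Samd8 lies on chromosome 14. Of 112 genes tested within 10 Mb of it 0 were called with all 8 samples, and of 160 within 20 Mb 0, against 0.234% of all genes tested. Without WT 1 the counts were 0 of 113 and 0 of 161, against 0.682%. So few genes would hold about 1 call or none at these shares, and the counts say nothing about where the calls lie. On the whole of chromosome 14, 2 of 510 were called, Phyhip and 4930480K23Rik. Chromosome 15 held the most calls, 7 of 603 genes tested (1.16%) with all 8 samples and 12 of 612 (1.96%) without WT 1, a count made after the calls were seen. It carries Dcstamp, Gm10020, Tbc1d31, Bik, Ttc38, Krt5 and an unnamed transcript, between 39745932 and 101712891.

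In hepatocytes, the labels give dKO as lacking Sms1 and Sms2 and tKO as lacking Smsr too, from mice aged 2 months for which no special diet is stated. Samd8 and Sgms1 RNA was not lower in the samples labelled as lacking them, and Sgms2 RNA was only partly lower. The dKO and WT samples were not compared by a test. Counts per whole gene would not show a change in part of the gene or in the protein. Samd8 stood at 81.6 ± 6.01 CPM in the samples labelled dKO and 101 ± 2.94 in those labelled tKO (SD, n = 3 each; 0.30 ± 0.0561, edgeR adjusted p = 9.23e-06). Sgms1 stood at 49.7 ± 3.34 CPM in WT and 90.5 ± 5.55 in dKO, and Sgms2 at 183 ± 7.69 and 150 ± 15.8. The directions below are those between the samples as labelled. Of the 37 genes called in liver with all 8 samples, 23 were tested there and 7 were called, 30.4%, against 29.5% of all 11471 genes tested. All 7 had the same sign as in liver. Of the 109 called without WT 1, 81 were tested and 34 called (42%), 22 with the same and 12 with the opposite sign. The 2 experiments share no samples.

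The 7 genes included 3 that were higher both in SMSrKO-labelled liver and in tKO over dKO hepatocytes. Phyhip stood at 0.215 ± 0.187 CPM in dKO and 2.98 ± 0.879 in tKO hepatocytes (SD, n = 3 each), a log2 fold change of 3.72 ± 0.471 (edgeR adjusted p = 4.18e-10) beside 5.44 ± 0.681 in liver. Krt5 stood at 2.86 ± 0.322 and 8.04 ± 1.20 CPM (1.48 ± 0.196, edgeR adjusted p = 1.52e-09) beside 1.64 ± 0.268 in liver. Slc35d2 stood at 15.5 ± 1.32 and 23.2 ± 0.668 CPM (0.58 ± 0.0985, edgeR adjusted p = 1.22e-06) beside 0.90 ± 0.137. WT hepatocytes held 0.0726 ± 0.0629 CPM of Phyhip, 3.19 ± 0.423 of Krt5 and 21.9 ± 0.79 of Slc35d2. In tKO, Slc35d2 was thus near its WT level, while Phyhip and Krt5 were above theirs. The other 4 were lower in both: Adcy1 by 0.30 ± 0.105, Aen by 0.19 ± 0.0598, Arhgap10 by 0.68 ± 0.260 and Fabp4 by 0.36 ± 0.138 in hepatocytes, all smaller than in liver, a difference that was not tested. Fabp4 stood at 3.37 ± 0.855 CPM in WT hepatocytes, 13.1 ± 1.46 in dKO and 10.3 ± 1.81 in tKO, so tKO lay above WT. Adcy1, Aen and Arhgap10 stood at 22.2, 78.1 and 5.29 CPM in WT and lower in tKO, at 15.5, 63.3 and 1.89. The tKO and WT hepatocytes were not compared by a test. Agxt, Smpd3 and Klf9 did not pass in hepatocytes, at −0.14 ± 0.0697, 0.04 ± 0.148 and −0.02 ± 0.0606. Hamp and Fabp5 went the other way there, at −1.02 ± 0.042 and 1.05 ± 0.0591, both called.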

How the data were processed

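RNA was sequenced from 8 liver samples, with 24391627 to 47351126 counts each, and 9 hepatocyte samples, with 9221488 to 9665309 estimated counts each. The depth sets the counting precision of genes of few counts. Per the file headers, the authors deposited raw read counts per Ensembl gene and TPM for liver, with 49315 genes, of which 174 had no symbol. The deposited TPM values equal TPM recomputed from counts and gene lengths within 5e-05 and were used only for this check. For hepatocytes the authors deposited expected counts per gene, which were rounded to whole numbers here (6.25% were not whole). The submitters' processing notes name the aligners STAR 2.5.2b and Bowtie2 2.2.5, besides Trimmomatic 0.36 and DESeq2 1.30.1, and the builds GRCm38 and mm10, without saying which served which experiment. Which tool counted the reads, and with which strand setting, is not given in the sources used here. Reads of overlapping and antisense genes therefore cannot be told apart.

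The filter was edgeR's filterByExpr at a minimum count of 10 and the scaling TMM. Summed levels of lists used the sample's total alone, without TMM. Tests used edgeR's robust quasi-likelihood method with Benjamini-Hochberg adjustment over all genes tested, at 0.05. Liver samples were fitted alone, with all 8 and without WT 1, and the 9 hepatocyte samples were fitted together. Grem1's ratio has an exact conditional binomial interval. Alternatives were DESeq2, other scalings, other filters, limma voom with sample quality weights, no robust shrinkage and leaving out each sample. The fits were also run on simulated data in which all genes had the same dispersion and no sample lay apart. These settings differ from the liver data, so that run does not show how the fits perform on them. Lists numbered 45, with 931 symbols, of which 922 were found. Named genes were those called with all 8 samples that have no predicted symbol (at most 20 each way, by fold), up to 10 each way called only without WT 1 (by fold, mean of at least 5 CPM, no overlap), up to 4 members per list by p, and the genes that set WT 1 apart or varied most within SMSrKO. Other list members and neighbouring genes were picked after their values were seen. The members and lists were chosen with earlier results of these data known. Software was R 4.3.3, edgeR 4.0.16, limma 3.58.1, DESeq2 1.42.0, matplotlib 3.10.9, numpy 2.4.6, pandas 2.3.3 and Python 3.11.15.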

Additional observations from a re-analysis of the deposited data

Results flagged for a closer look

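A sample was picked out where its gap to the nearest of the other 3 of its group took more of the group's range than Dixon's 95% critical value for 4 samples. Of 172 groups scanned 15 were picked out, and 8 of the 15 were WT 1. The critical value gives about 1 in 20 only for independent, normally distributed groups. These groups share samples, some lists share genes and the genes and lists were chosen with earlier results known. The number picked out therefore cannot be set against that rate.

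Among genes, WT 4 was the only WT sample with Grem1, at 0.0302 CPM, which is 1 count. SMSrKO 6 held 56.5 CPM of Slc35d2, where the other 3 stood at 37.9 to 39.8, and SMSrKO 7 held 66.7 CPM of Fam13a, where the others stood at 53.9 to 54.9. WT 1 held 48.4 CPM of Tle1, just under the 50.5 to 50.7 of the other WT samples. In Slc35d2 and Fam13a the sample lay farther from WT than the rest of its group, and in Tle1 and Grem1 the distance was small beside the difference between the groups.

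Among summed lists, WT 1 was lowest in sphingolipid synthesis, at 757 CPM against 874 to 880 in the other WT samples. It was also lowest in fatty acid uptake and lipid droplet genes, at 4200 against 7220 to 7750, in xenobiotic cytochromes, at 13400 against 21100 to 22300, and in pericentral hepatocyte genes, at 8490 against 13800 to 14400. It was highest in glucose and fructose genes, at 17200 against 12400 to 13100, in acute phase genes, at 54200 against 22000 to 27000, and in periportal hepatocyte genes, at 17100 against 9620 to 10800. SMSrKO 8 stood apart from its group in sphingolipid breakdown, at 1760 CPM against 1510 to 1540, in lysosomal genes, at 5270 against 4500 to 4550, and in lipoprotein genes, at 53600 against 55000 to 55200. It also held the highest summed macrophage level of the 8 samples. SMSrKO 6 was highest in bile acid genes, at 7350 against 6730 to 6790. These sums are relative to the sample's total alone, without TMM scaling. The TMM factor was 1.037 in SMSrKO 8 and 0.9445 to 0.9743 in the others of its label. It was 0.9813 in WT 1 and 0.9835 to 1.082 in the other WT samples. Whether the same samples would be picked out with TMM scaling was not tested.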

How the results depend on the processing

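With all 8 samples, the 37 calls became 476 with DESeq2, 136 with no filter on low counts, 12 among genes with a mean of at least 5 CPM and 190 with limma voom and sample quality weights. DESeq2 and voom each called all 37. Leaving out 1 sample gave 11 (without WT 4) to 109 (without WT 1), with 23 without WT 3, 13 without SMSrKO 5 and 15 without SMSrKO 7. Without WT 1, the 109 became 621, 402, 67 and 332 in the same order. Leaving out 1 more gave 12 (without WT 4) to 391 (without SMSrKO 8), with 62 without WT 2, 47 without SMSrKO 5 and 42 without SMSrKO 7. Scaling by library totals shifted the median log2 fold change by −0.07 and gave 39 calls, 38.5% of them higher against 51.4%, and without WT 1 131, 23.7% higher against 38.5%. Calls for tKO minus dKO hepatocytes stayed between 2467 and 3494 in the alternatives run. The cause of these shifts was not tested. No called gene named here reversed its direction in the alternatives run. Of values of named genes with all 8 samples, 158 were no longer called, 100 became called and 1900 kept their side of the threshold. Genes with few counts are limited by depth.

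No paired analysis was possible because the liver groups are numbered 1 to 4 and 5 to 8 and the hepatocyte groups dKO and tKO 4 to 6 and 7 to 9, with no number in common.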

Other observations

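Some genes called in either fit lay next to each other, a description made after the calls were seen. Among these 111 genes, 17 neighbouring pairs lay within 1 Mb, and 11 of the pairs had the same sign. How many such pairs other tested genes would form was not computed, so these counts do not show that calls cluster. The closest to Grem1 was 4930533B01Rik, an uncharacterised transcript 37.6 kb away on chromosome 2. It stood at 0.0603 to 0.0753 CPM in WT and 0.654 to 1.56 in SMSrKO-labelled samples (4.04 ± 0.416, edgeR adjusted p = 0.00386), and it kept its call whichever single sample was left out. Of 7 genes tested within 1 Mb of Grem1, these were the 2 called, against 0.234% of all genes tested. Grem1 itself, on which the window was centred, is 1 of the 2. In windows of the same width, 2 of 25 genes were called around Phyhip, 1 of 9 around Dcstamp and 1 of 58 around Eps8l1. Each of these counts includes the called gene at the centre. Fmn1, a formin that lies beside Grem1, differed by −0.19 on the log2 scale, and Arhgap11a by −0.45, and neither was called.

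On chromosome 15, Rims2, a synaptic vesicle scaffold, lies 64.0 kb from Dcstamp. It differed by −2.93 with all 8 samples (edgeR adjusted p = 0.0618) and was called without WT 1, at −3.01. Slc35d2 and Habp4 lie 32.5 kb apart on chromosome 13 and went in opposite directions, at 0.90 and −0.61, both called. The fatty acid binding protein genes Fabp5 and Fabp4, 187.5 kb apart on chromosome 3, were both lower, at −1.31 and −0.86, and Fabp5 was called only without WT 1.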
